A study of Mus musculus with 6 samples.

Results

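The genes of sterol synthesis, uptake and export were followed in mouse cells labelled as Eµ-Myc lymphoma, with floxed or deleted alleles of the miR-17~92 microRNA cluster. The set was fixed by gene symbol, through the NCBI gene numbers of the count table, with no measured value in the rule, although earlier results of these data were known when it was chosen. It holds 30 of the 24885 rows of the table: 5 genes of the SREBP machinery, 9 enzymes from acetyl-CoA to squalene, 10 enzymes from squalene to cholesterol, and 6 genes of sterol transport, LDL receptor turnover, export and esterification. The 9 include Ggps1, which makes geranylgeranyl diphosphate on a side branch. All 30 genes were found, and 29 had enough reads to be tested.

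Cells make cholesterol from acetyl-CoA through mevalonate, and the same route supplies the isoprenoids that anchor small GTPases to membranes. SREBP transcription factors drive this route and are held in the endoplasmic reticulum by SCAP and the INSIG proteins while sterols are plentiful. When oxysterols build up, LXR receptors switch on export pumps of the ABC family and MYLIP, also called IDOL, a ubiquitin ligase that sends the LDL receptor to degradation. Proliferating lymphoid cells are known to depend on this supply for membrane growth.

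Per the labels, both groups derive from Eµ-Myc cells that carry a Myc transgene active in the B lineage, floxed miR-17~92 alleles (fl/fl) and the tamoxifen-responsive recombinase Cre-ERT2. The 3 fl libraries are of cells labelled floxed. The 3 del libraries are of cells labelled del17-92, made by exposure to 250 nM 4-hydroxytamoxifen (4-OHT) and subcloning, and no such treatment is named for fl. Before RNA was taken, all had been grown for 48 hours on irradiated Ink4a-null mouse embryonic fibroblasts. The number of subclones is not stated, nor is the origin of the libraries within a group. The p-values therefore reflect only spread among these libraries, possibly technical, and deletion, 4-OHT and subcloning cannot be told apart.

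Read totals were 6554423 to 9580630 in fl and 2121796 to 3738720 in del, and depth went with group. Values are CPM, reads scaled to a common total with TMM factors, and means are ± SD over 3 libraries. Each log2 fold change is del relative to fl, ± standard error (SE), from edgeR's quasi-likelihood test. Changes passed at an adjusted p below 0.05. Of 10260 genes tested, 65.1% passed, 32.6% lower and 32.5% higher in del, so a call of a single gene was common, and the median log2 fold change over all genes was -0.00. Mir17hg, the primary transcript that carries the cluster, stood at 252, 263 and 262 CPM in fl and 167, 152 and 206 CPM in del. It fell (-0.56 ± 0.15, adjusted p = 0.00844), but whether its 3' reads lie within the deleted stretch is not stated, so this does not check the deletion. The libraries also differed in cell type markers. B cell markers summed to 103 to 128 CPM in fl and 1434 to 1634 CPM in del, with all 14 tested of 17 higher in del. Igll1 and Rag1 were at 0 in fl, and Cd79b, a chain of the B cell receptor, stood there at 1.61 to 2.52 CPM. Most B cell markers were thus low in the fl libraries, although both groups are labelled lymphoma cells of the same origin. Myeloid markers summed to 428 to 473 CPM in fl and 3213 to 3932 CPM in del, with 9 of 14 higher and Cd14 lower, and S100a9 at 0 in both groups. Epithelial markers summed to 516 to 546 CPM in fl and 0.947 to 1.62 CPM in del, with 4 of 8 lower, and Cdh1 and Cldn3 at 0 in both. Fibroblast markers, which the feeder layer would carry, summed to 1.61 to 8.5 CPM in fl and 14.2 to 34.1 CPM in del, and T and NK markers to 38.6 to 42.7 CPM and 99.5 to 121 CPM. Of the 3 T and NK markers tested Cd2 rose, from 13.1 to 105 CPM on average, while Cd5 fell from 23.3 to 3.3 CPM and Lck from 3.24 CPM to no read. Epcam, Krt18 and Afp, found in epithelial or fetal liver cells, stood at 169.9 ± 5.02, 214 ± 14 and 138 ± 8.45 CPM in fl and at under 1 CPM on average in del. These markers do not bear out a shared B cell identity of the groups, so each value below compares the libraries labelled fl and del, and a difference in cell identity cannot be told apart from the deletion.

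Most enzymes of sterol synthesis fell in del, while Mylip, Abcg1, Nr1h2, Soat1 and Scap rose. Of the 29 tested members, 18 fell, 5 rose and 6 did not pass, with a median log2 fold change of -0.68. Fl and del libraries were fully apart for 23 of the 29, against 69.9% of all genes tested. The 19 synthesis enzymes carried the fall: 15 fell, none rose and 4 did not pass, that is 78.9% lower against 32.6% of all genes. The side branch enzyme Ggps1 is counted among the 4. At least a 2-fold fall was seen for 9 of the 19, against 15.9% of all genes. Summed over the 19 enzymes, CPM came to 1741, 1867 and 1802 in fl and to 930.4, 800.1 and 870.5 in del. With Fdps left out the sums were 1315, 1421 and 1393 CPM in fl and 824, 714 and 774 CPM in del, so the groups stood apart without the most changed of the abundant enzymes too. In bulk libraries like these, fewer cells of a type and less RNA per cell cannot be told apart.

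**Figure D1:**
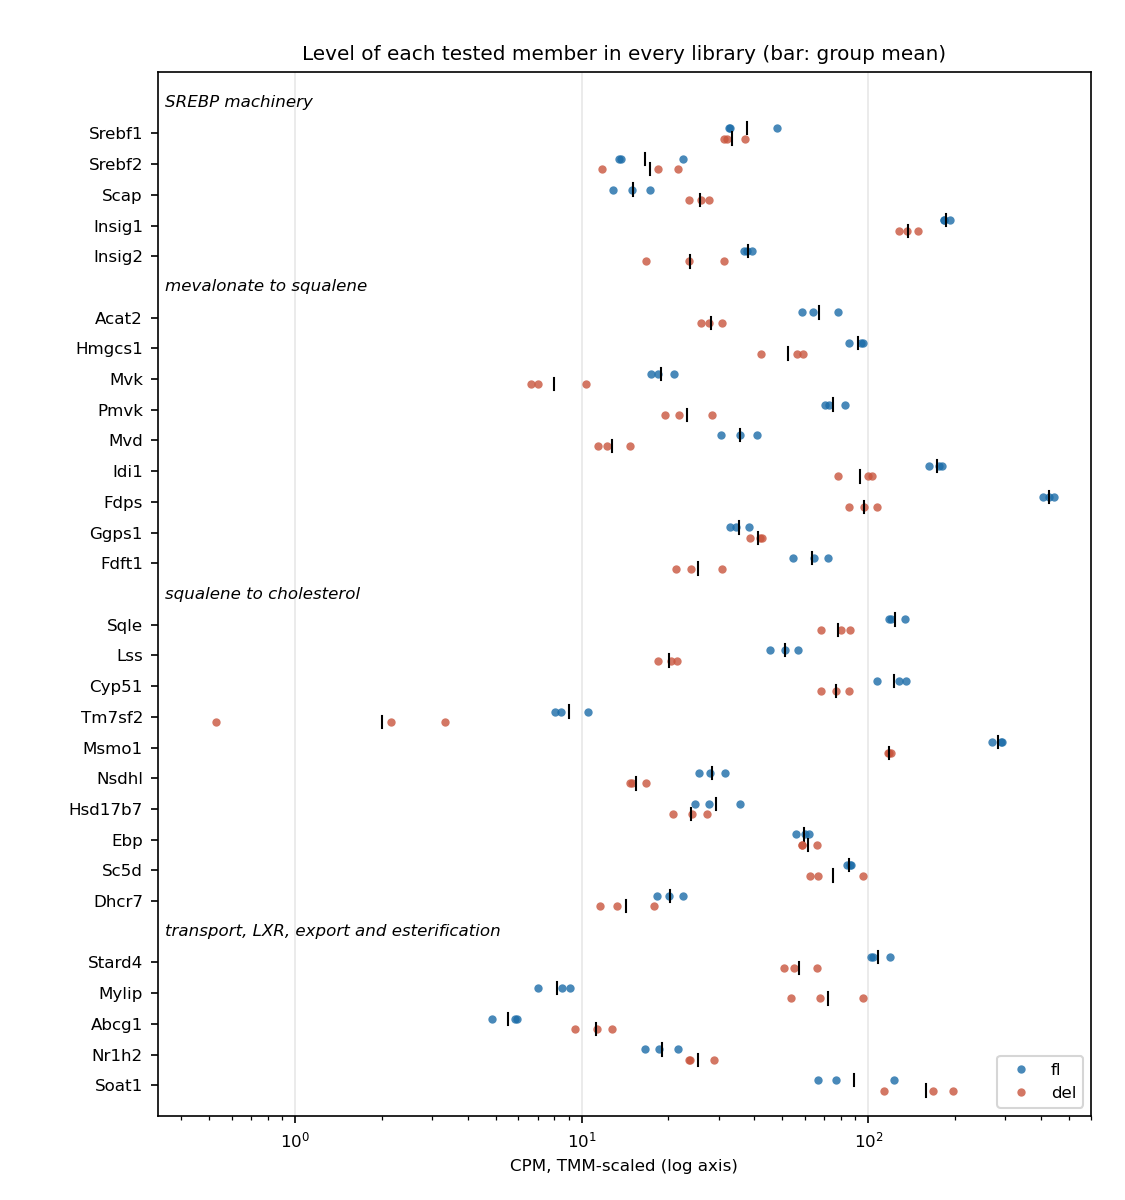
Level of each of the 29 tested members in every library, in TMM-scaled CPM on a log axis; blue points are the 3 fl libraries, red points the 3 del libraries and short bars the group means. Enzymes of the mevalonate block other than Ggps1 sit to the left in del, with Fdps going from 427 to 96.4 CPM, while Mylip goes from 8.2 to 72.5 CPM.

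The 2 genes of the SREBP factors themselves did not pass the test, whereas their partners did. Srebf1, whose product also drives fatty acid synthesis, was at 32.9, 32.7 and 47.9 CPM in fl and 32.1, 31.3 and 37 CPM in del (-0.17 ± 0.18, adjusted p = 0.446). Srebf2, the main driver of cholesterol genes, was at 13.5, 13.7 and 22.6 CPM in fl and 21.6, 11.8 and 18.4 CPM in del (0.11 ± 0.27, adjusted p = 0.724). The groups overlapped for both genes. The estimate for Srebf2 turned negative with upper-quartile factors (-0.02), and at 25 to 154 reads per library its SE of 0.27 leaves room for a moderate change in either direction. Scap, the sterol-sensing escort of SREBP, rose from 12.8, 17.3 and 15 CPM to 23.7, 26.1 and 27.8 CPM (0.78 ± 0.16, adjusted p = 0.0022), with no overlap.

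Both INSIG genes fell. Insig1, which retains SCAP in the endoplasmic reticulum and is itself an SREBP target, went from 183, 183 and 193 CPM to 149.6, 136 and 128 CPM (-0.43 ± 0.13, adjusted p = 0.0148). Insig2, the second retention factor, went from 39.2, 37.7 and 36.8 CPM to 23.7, 31.3 and 16.8 CPM (-0.70 ± 0.20, adjusted p = 0.0128). Every del library lay below every fl library for both genes, with the del values of Insig2 the more scattered. Neither call held once the trend of fold changes on transcript length and GC content was removed (Insig1 -0.23, adjusted p = 0.146; Insig2 -0.50, adjusted p = 0.0545), and that of Insig2 was also lost in libraries thinned to equal depth (-0.54, adjusted p = 0.0505).

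Of the 9 enzymes of the block from acetyl-CoA to squalene, 8 fell, with a median of -1.26. Only Ggps1, which lies on a side branch, did not pass. Over all genes tested 32.6% fell and 32.5% rose. Acat2, the cytosolic thiolase, and Hmgcs1, which forms HMG-CoA, open the route. Acat2 went from 58.9, 78.6 and 64.1 CPM to 27.7, 30.8 and 26 CPM (-1.26 ± 0.16, adjusted p = 0.000118), and its neighbouring paralogue Acat3 had no read in any library. Hmgcs1 went from 85.5, 95.8 and 94.3 CPM to 56.4, 42.2 and 59.2 CPM (-0.79 ± 0.16, adjusted p = 0.00158). The promoter of Hmgcs1 is shown because it was the 1 member window that held the sterol regulatory element core TCACNCCAC. It lies on chr13:119690101-119690400, plus strand, and its element starts at -137 from the RefSeq start site. Capitals mark that element and the CCAAT boxes, which read ATTGG on this strand.
Hmgcs1: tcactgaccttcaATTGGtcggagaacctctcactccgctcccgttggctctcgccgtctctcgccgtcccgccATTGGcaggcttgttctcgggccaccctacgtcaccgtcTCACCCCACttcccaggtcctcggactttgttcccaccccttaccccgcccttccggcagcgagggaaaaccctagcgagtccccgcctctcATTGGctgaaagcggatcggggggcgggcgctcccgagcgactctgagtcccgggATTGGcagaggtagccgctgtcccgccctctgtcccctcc

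The 3 steps that turn mevalonate into isopentenyl diphosphate fell by more than Hmgcs1, in point estimate. Mvk, mevalonate kinase, went from 20.9, 18.5 and 17.4 CPM to 10.3, 6.63 and 7.03 CPM (-1.22 ± 0.20, adjusted p = 0.000532). Pmvk, phosphomevalonate kinase, went from 82.9, 70.5 and 72.9 CPM to 28.4, 21.8 and 19.5 CPM (-1.69 ± 0.17, adjusted p = 3.26e-05). Mvd, the decarboxylase of this step, went from 30.5, 40.7 and 35.6 CPM to 14.7, 11.4 and 12.2 CPM (-1.46 ± 0.18, adjusted p = 9.23e-05). In all 3 the highest del library was well below the lowest fl library. With the length and GC trend removed, Pmvk stood at -1.02 and kept its call. Idi1, the isomerase that follows, went from 176, 163 and 180.3 CPM to 103, 78.6 and 99.8 CPM (-0.88 ± 0.15, adjusted p = 0.000594). The Mvk promoter (chr5:114444019-114444318, plus strand) is given as the member window with the most CCAAT boxes, 5 of them in capitals, the fourth on this strand and the others on the opposite one.
Mvk: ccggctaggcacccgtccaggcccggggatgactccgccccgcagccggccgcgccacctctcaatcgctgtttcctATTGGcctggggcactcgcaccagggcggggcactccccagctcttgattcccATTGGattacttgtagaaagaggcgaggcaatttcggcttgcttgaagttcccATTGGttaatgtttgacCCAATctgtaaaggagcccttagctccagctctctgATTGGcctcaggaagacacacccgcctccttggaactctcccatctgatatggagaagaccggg

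At the farnesyl diphosphate branch point Fdps and Fdft1 fell, and Ggps1 did not pass. Fdps (gene number 110196, chromosome 3 from 89093588 to 89101959), which makes farnesyl diphosphate, was at 426, 446 and 408 CPM in fl and 107, 85.7 and 96.8 CPM in del. Its log2 fold change was -2.14 ± 0.15 (adjusted p = 3.31e-06), and all fl libraries lay far above all del libraries. Fdft1, squalene synthase, which commits farnesyl diphosphate to sterols, went from 54.5, 72.5 and 64.4 CPM to 24.0, 21.3 and 30.8 CPM (-1.32 ± 0.18, adjusted p = 0.000191). Ggps1, which extends the chain to geranylgeranyl diphosphate for protein prenylation, was at 38.2, 34.6 and 33 CPM in fl and 38.7, 41.7 and 42.7 CPM in del (0.22 ± 0.13, adjusted p = 0.174). Its groups did not overlap, yet it missed the threshold, and it passed as higher in thinned libraries (0.44, adjusted p = 0.0428) and stood at -0.06 with the length and GC trend removed.

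A ratio of 2 genes within a library hardly depends on how libraries are scaled. The ratio of Fdps to Ggps1 reads was 11.1, 12.9 and 12.4 in fl and 2.76, 2.06 and 2.27 in del, a log2 difference of -2.36. The groups stood clear of each other, and the exact two-sided permutation p was 0.1, the smallest that 3 against 3 libraries can give (0.3 after Benjamini-Hochberg adjustment over the 3 ratios computed). The Srebf1 to Srebf2 ratio was 2.12 to 2.43 in fl and 1.49 to 2.64 in del (log2 difference -0.21, exact permutation p = 0.6, adjusted 0.6). The Insig1 to Insig2 ratio was 4.66 to 5.24 in fl and 4.36 to 7.66 in del (0.26, exact permutation p = 0.4, adjusted 0.6). For these pairs the del range enclosed the fl range. The planned ratio of Abca1 to Abcg1 was not computed, since Abca1 had only 2 reads in all. No ratio is per transcript length, so only its change between groups is read.

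**Figure D2:**
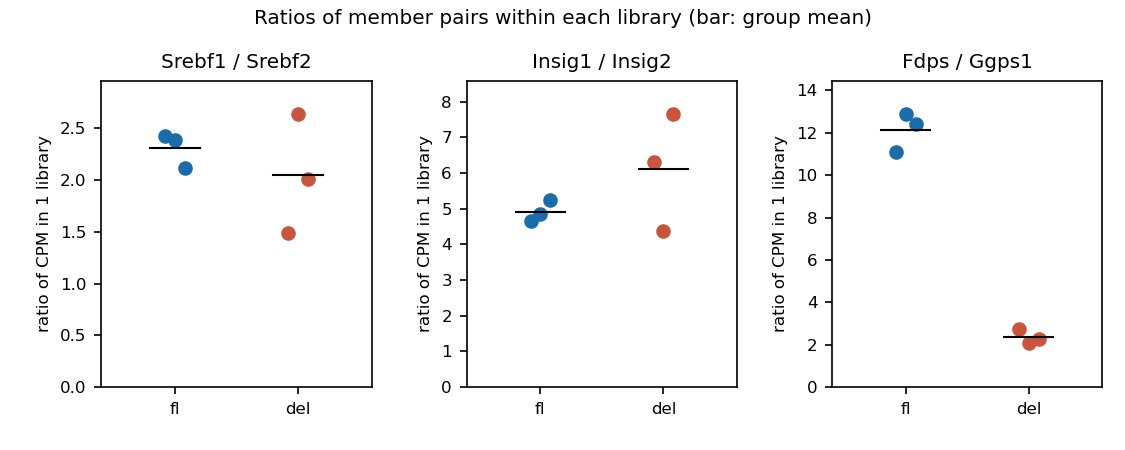
Ratio of CPM of 2 members within each library, on linear axes from 0; points are single libraries (blue fl, red del) and bars group means. Fdps over Ggps1 lies at 11.1 to 12.9 in fl and 2.06 to 2.76 in del, while the other ratios overlap.

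From squalene to cholesterol 7 of 10 enzymes fell and none rose in the main fit, with a median of -0.67. Over all genes tested 32.6% fell and 32.5% rose. The fall of Dhcr7 and the absence of a rise did not hold in every alternative, as given below. Sqle, squalene epoxidase and a control point of the route, went from 120.2, 118 and 134 CPM to 86.4, 80.1 and 68.4 CPM (-0.66 ± 0.14, adjusted p = 0.00261). Lss, which closes the sterol ring system, went from 45.2, 56.7 and 51.2 CPM to 20.5, 18.5 and 21.4 CPM (-1.33 ± 0.15, adjusted p = 6.06e-05), and stood at -2.06 once that trend was removed. Both genes were lower in each del library than in any fl library. Cyp51, the lanosterol demethylase, went from 107, 135 and 128 CPM to 76.9, 68.2 and 85.4 CPM (-0.68 ± 0.15, adjusted p = 0.00311). Tm7sf2, a sterol reductase, was at 8.48, 10.5 and 8.06 CPM in fl and 0.527, 3.32 and 2.16 CPM in del (-2.32 ± 0.40, adjusted p = 0.000729). Its del libraries held only 2, 7 and 8 reads, so the size of this fall is poorly fixed.

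The methyl-removing enzymes that follow fell as well. Msmo1, the sterol methyl oxidase, went from 270.5, 290.5 and 292 CPM to 120.4, 117 and 118 CPM (-1.26 ± 0.13, adjusted p = 3.02e-05), with little spread among the del libraries. Nsdhl, which acts next, went from 25.7, 31.7 and 27.9 CPM to 15, 14.7 and 16.8 CPM (-0.87 ± 0.15, adjusted p = 0.000834, and -0.55 after removal of the length and GC trend). Both were lower in all del libraries. Hsd17b7, the ketoreductase of the same complex, was at 24.9, 35.7 and 27.7 CPM in fl and 20.8, 24.2 and 27.3 CPM in del, overlapped and did not pass (-0.29 ± 0.18, adjusted p = 0.19).

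Of the closing steps Ebp and Sc5d did not pass and Dhcr7 fell. Ebp, the sterol isomerase, was at 60.3, 62 and 56 CPM in fl and 66.4, 58.7 and 58.9 CPM in del (0.05 ± 0.13, adjusted p = 0.759, and -0.08 with upper-quartile factors). Sc5d, the sterol desaturase, was at 86.5, 84.3 and 86.8 CPM in fl and 96.1, 62.5 and 66.5 CPM in del (-0.19 ± 0.17, adjusted p = 0.367). In both genes the groups overlapped, and for Sc5d the spread came from del replicate 1, without which it passed as lower (-0.41, adjusted p = 0.0345). Removal of the length and GC trend brought 3 late genes past the threshold: Ebp higher (0.48, adjusted p = 0.0083), Sc5d lower (-0.55, adjusted p = 0.0265) and Hsd17b7 lower (-0.61, adjusted p = 0.0175). Dhcr7, the terminal reductase, went from 18.3, 22.5 and 20.1 CPM to 17.9, 13.3 and 11.6 CPM (-0.50 ± 0.19, adjusted p = 0.0414). Its highest del and lowest fl libraries were nearly level, and it lost its call when fl replicate 2 was left out (-0.41, adjusted p = 0.124), and likewise for fl replicate 3 (-0.51, 0.0756), del replicate 2 (-0.46, 0.0997) and del replicate 3 (-0.35, 0.162), and with DESeq2 (adjusted p = 0.084).

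**Figure D3:**
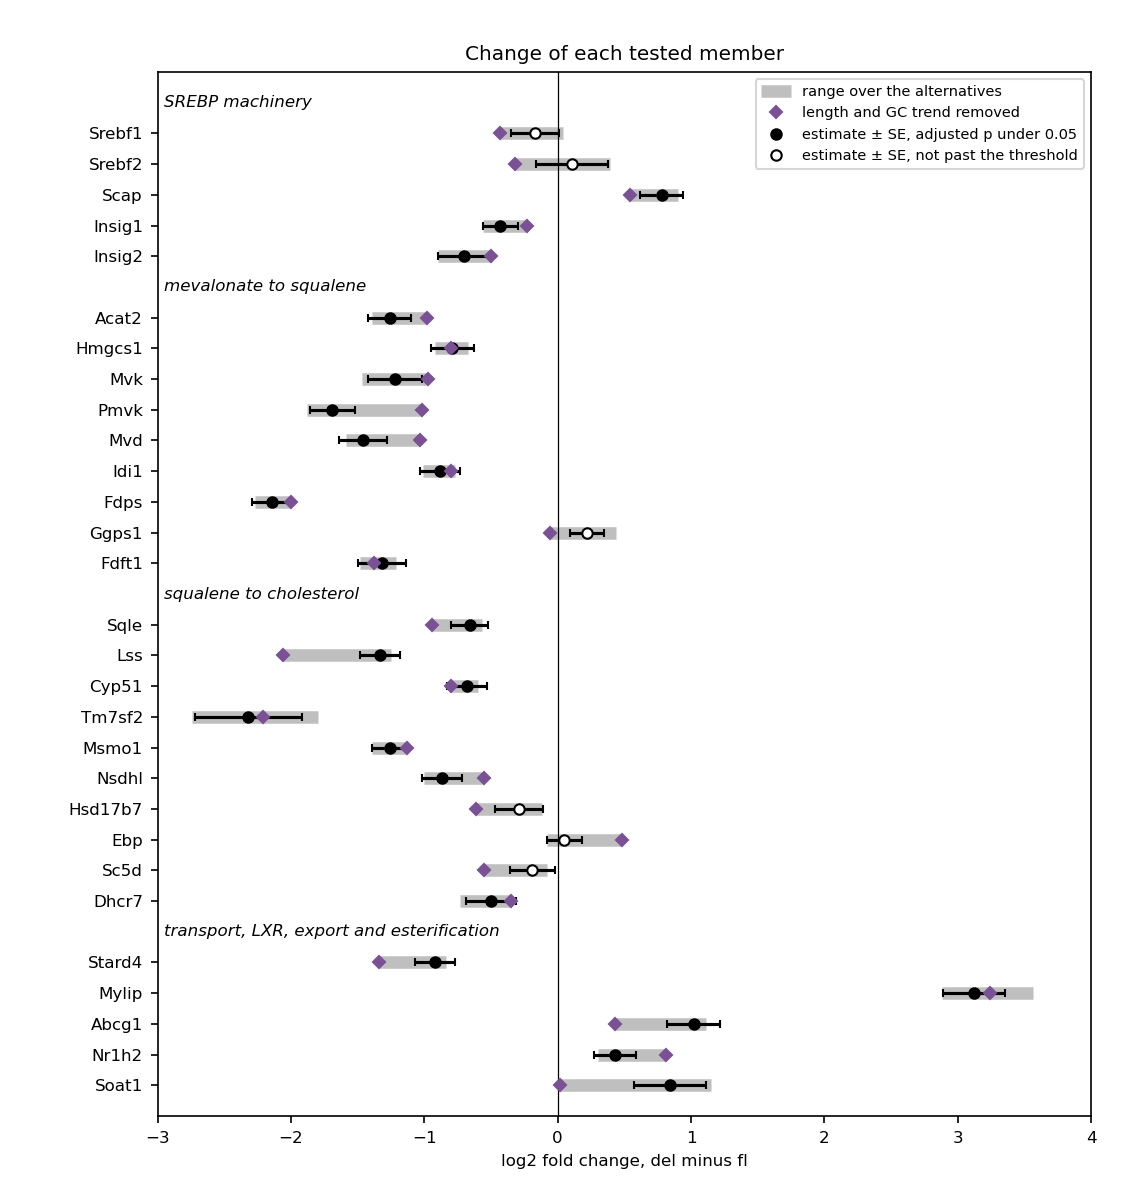
Log2 fold change (del minus fl) of each tested member with its standard error (circles, filled where the adjusted p is below 0.05), the range over the alternative settings (grey) and the value after the length and GC trend was taken out (purple diamonds). Fdps at -2.14 and Mylip at 3.12 stay clear of 0 throughout, whereas Soat1 moves from 0.84 to 0.02 once the trend is removed.

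Genes of sterol handling outside the synthetic route went mostly the other way in the main fit: of 6, 4 rose, 1 fell and 1 could not be tested. Over all genes tested 32.5% rose and 32.6% fell. Of the 4 rises only that of Mylip held in every alternative. The sterol handling genes moved beside the summed myeloid markers, which went from 448 ± 23.0 CPM to 3577 ± 359.6 CPM, and the B cell markers, which went from 113 ± 13.2 CPM to 1509.6 ± 109 CPM. Their part in the rises was not tested. Stard4, a soluble sterol carrier and an SREBP target, was the 1 that fell, from 119, 104 and 102 CPM to 54.8, 50.7 and 66.2 CPM (-0.92 ± 0.15, adjusted p = 0.000543).

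Mylip (gene number 218203, chromosome 13 from 45389742 to 45412022) rose more than any other member. It was at 9.06, 8.5 and 7.04 CPM in fl and 67.9, 95.7 and 53.8 CPM in del, a log2 fold change of 3.12 ± 0.23 (adjusted p = 5.51e-06), or 8.69-fold. Every del library lay far above every fl library. The product of Mylip lowers LDL receptor protein, which RNA counts do not show. Its longest annotated 3' UTR of 1512 bases held 1 match each to the seed sites of miR-18a, miR-19 and miR-92a, at positions 324, 1314 and 1200 from its first base. The matches are printed because no other member that rose held 3, with the 7 bases that pair with the microRNA seed in capitals.
Mylip, miR-18a site: cccaaccgtggGCACCTTttaggaaatga
Mylip, miR-19 site: gcatttgtttcTTTGCACagacattttgt
Mylip, miR-92a site: gacctcatcggGTGCAATactagctaagt

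Abcg1, which exports cholesterol to high-density lipoprotein and is a classical LXR target, rose from 5.85, 5.93 and 4.84 CPM to 11.3, 9.47 and 12.7 CPM (1.02 ± 0.20, adjusted p = 0.00136). The groups were apart, but the call was lost with the length and GC trend removed (0.43, adjusted p = 0.0801). Abca1, the other main LXR-driven pump, had no read in fl and 2 reads in del, both in replicate 3. In fl a count of 0 allows up to 0.313 to 0.458 CPM per library (3 reads over the raw total, before TMM scaling), and no fold is given. Nr1h2, which encodes the broadly expressed LXR beta, rose slightly, from 16.6, 21.7 and 18.6 CPM to 29, 23.7 and 23.8 CPM (0.43 ± 0.16, adjusted p = 0.0403). The lowest del value lay just above the highest fl value, and leaving out fl replicate 1 (0.34, adjusted p = 0.125), fl replicate 3 (0.42, 0.0926), del replicate 1 (0.32, 0.16) or del replicate 2 (0.47, 0.0501) ended the call. So did upper-quartile factors (0.30, 0.148) and DESeq2 (0.0887), while removal of the length and GC trend gave 0.81.

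Soat1, which esterifies cholesterol for storage, was at 77.4, 123 and 66.9 CPM in fl and 113, 168 and 197 CPM in del (0.84 ± 0.27, adjusted p = 0.0216). The groups overlapped through fl replicate 2 and del replicate 1. Leaving out fl replicate 1 (0.74, adjusted p = 0.0614) ended the call, as did fl replicate 3 (0.67, 0.0709), del replicate 2 (0.80, 0.0622) and del replicate 3 (0.65, 0.088). The estimate dropped to 0.02 when that trend was taken out (length and GC). The longest annotated transcript of Soat1 has 8371 bases, against a median of 3399 over the genes tested. The part of transcript length in the Soat1 rise was not tested. The 5 rises thus differ in support: those of Scap and Mylip held under all 15 alternatives, while the count of members called higher was 3 without fl replicate 1, fl replicate 3 or del replicate 2.

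Since the study set out to remove a microRNA cluster, the members' 3' UTRs were searched for the 7 bases complementary to microRNA positions 2 to 8. The cluster's 6 main mature strands share 4 seeds, shown here in capitals from the RefSeq records (GRCm38.p6, chromosome 14, plus strand). MiR-17 and miR-20a have the same seed, as do miR-19a and miR-19b.
miR-17-5p: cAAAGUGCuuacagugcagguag
miR-20a-5p: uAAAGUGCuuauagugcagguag
miR-18a-5p: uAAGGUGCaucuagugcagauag
miR-19a-3p: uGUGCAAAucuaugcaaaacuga
miR-19b-3p: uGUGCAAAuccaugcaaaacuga
miR-92a-3p: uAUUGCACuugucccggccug

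Of the 30 members 13 held at least 1 site, against 35.7% of 9850 tested genes with a UTR. The GCACTTT site of miR-17/20a was in 4 members (13.3%, against 15.3% of tested genes), GCACCTT of miR-18a in 6 (20%, against 10.3%), TTTGCAC of miR-19 in 6 (20%, against 14.1%) and GTGCAAT of miR-92a in 6 (20%, against 7.99%). Among the 13 with a site 5 fell, 4 rose, 3 did not pass and 1 was not tested, and among the 17 without one 13 fell, 1 rose and 3 did not pass. Of all genes tested 32.6% fell and 32.5% rose, so 4 rises among 13 are not read as a result about the sites. The members that rose with a site were Mylip, Abcg1, Nr1h2 and Soat1, and Scap rose without one. Of the 4 with a site only Mylip kept its call in every alternative. Over all tested genes the median log2 fold change was 0.40 with a miR-17/20a site and -0.06 without, 0.23 and -0.02 for miR-18a, 0.36 and -0.06 for miR-19, and 0.52 and -0.04 for miR-92a. These medians were taken with the length and GC trend left in. The presence of a site and gene length thus cannot be told apart in them. Among the members, sites were also found in genes that fell: Stard4, with 3, fell, as did Lss, Mvk, Nsdhl and Insig1 with 1 each, and Sc5d, with 3, did not pass. Members with a site had longer UTRs (median 1842 bases) than those without (972 bases), and longer UTRs hold more matches to any 7 bases. A match is a description of the annotated sequence, not a shown target. The sites of Abcg1 and Soat1 are given beside those of Sc5d to show matches in genes that rose and in one that did not.
Abcg1, miR-19 site: ttatctgtgatTTTGCACatgcactctcg
Abcg1, miR-92a site: gtctgggcacaGTGCAATcccttctggct
Soat1, miR-17/20a site: ccgctgctggaGCACTTTccttcaggtga
Soat1, miR-92a site: gaggtatgctaGTGCAATtgagaagaaag
Sc5d, miR-18a site: cctatacagagGCACCTTactctctgggg
Sc5d, miR-19 site: tctaagttgctTTTGCACcactgggttac
Sc5d, miR-92a site: cgtttgcagtgGTGCAATctctaagttgc

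SREBP acts at promoters together with NF-Y, which binds CCAAT boxes, and Sp1, which binds GC boxes. RefSeq promoter windows of 300 bases (250 before and 50 after each start, GRCm38.p6) were matched to 25 of the 30 members. Fdps, Fdft1, Sqle, Stard4 and Abcg1 were not matched. Motifs were searched on both strands, and a gene counted if any of its windows matched. CCAAT was found in 21 of 25 members (84%), against 43.5% of 8313 tested genes with a window, and GGGCGG in 22 (88%), against 69.9%. The E-box CACGTG, which Myc and SREBP can both bind, was in 6 (24%, against 12.4%), and the sterol regulatory element core in Hmgcs1 alone (4%, against 1.32%). That core was searched without mismatches and only in these windows, so members without a match are not shown to lack an element. The direct repeat of AGGTCA with a spacer of 4 bases, the LXR motif searched without mismatches, was in 5 of all 32851 windows. It was in no member and in 0 of the 8313 tested genes. A match this rare cannot show whether a member lacks LXR sites. Of the 21 members with a CCAAT box 13 fell, 2 rose (Mylip and Soat1) and 6 did not pass. Over all 29 tested members 62.1% fell and 17.2% rose, so 13 falls among 21 are not read as a result about the box. Of the 4 without it Acat2 fell, Scap and Nr1h2 rose and Abca1 was not tested. Of all genes tested 32.6% fell and 32.5% rose. The Mylip window (chr13:45389492-45389791, plus strand) is printed for comparison with those of Hmgcs1 and Mvk, with its 3 CCAAT boxes in capitals.
Mylip: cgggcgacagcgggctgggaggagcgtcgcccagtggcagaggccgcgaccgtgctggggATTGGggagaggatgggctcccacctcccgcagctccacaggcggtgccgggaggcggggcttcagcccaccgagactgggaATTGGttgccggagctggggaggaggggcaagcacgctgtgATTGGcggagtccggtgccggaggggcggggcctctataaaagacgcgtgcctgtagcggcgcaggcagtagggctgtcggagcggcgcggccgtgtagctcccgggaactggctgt

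Other genes that touch the pathway were taken from lists fixed by name. Their counts stand beside 32.6% lower and 32.5% higher over all genes tested. Of 12 genes that process SREBP or degrade sterol-regulated proteins, 5 fell, 1 rose and 6 did not pass (median -0.22). Mbtps2, the protease that releases SREBP, fell (-0.79 ± 0.17), as did Tmem41b (-0.76 ± 0.13) and Ufd1, a cofactor of protein extraction from the endoplasmic reticulum (-0.66 ± 0.12, a call lost at -0.32 once length and GC were accounted for). The 1 that rose was Faf2. Of 14 genes of the isoprenoid branch 8 fell and 2, Icmt and Pggt1b, rose (median -0.54). Rabggtb, a subunit of the enzyme that prenylates Rab proteins, fell from 409 ± 22.3 CPM to 107 ± 10.7 CPM. Rce1, the protease that trims prenylated proteins, fell (-1.21 ± 0.19), whereas Icmt, which then methylates them, rose (1.09 ± 0.16).

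Of 15 genes of fatty acid synthesis and other SREBP1 targets, 14 were tested, and 7 fell, 1 rose and 6 did not pass (median -0.32). The desaturase genes Fads1 (-1.40 ± 0.14, adjusted p = 2.62e-05) and Scd1 (-1.16 ± 0.17, adjusted p = 0.000255) fell. Acacb, an acetyl-CoA carboxylase, was at 4.79 ± 0.626 CPM in fl and had no read in del, at least 15.3-fold lower against a floor of 3 reads over the group. Fasn, fatty acid synthase, was the 1 that rose (0.73 ± 0.14, adjusted p = 0.00129), and none passed as higher once length and GC were accounted for.

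Of 15 tested genes of lysosomal and non-vesicular sterol transport 5 rose, 2 fell and 8 did not pass (median 0.27). That is 33.3% higher, near the 32.5% of all genes tested, and 13.3% lower, against 32.6%. Osbpl8, a lipid transfer protein at membrane contacts, rose from 12.9 ± 2.1 CPM to 205 ± 65.6 CPM, Lamp2, a lysosomal membrane protein, by 2.77 ± 0.21 and Lipa, the lysosomal cholesteryl ester hydrolase, by 2.62 ± 0.20 on the log2 scale. Of 7 tested lipoprotein receptor and adaptor genes 3 fell and 2 rose. The receptor gene Lrp1 rose from 0.821 ± 0.115 CPM to 28.1 ± 6.07 CPM and the adaptor gene Dab2 from 4.66 ± 0.397 CPM to 178 ± 6.15 CPM, while Scarb1, a high-density lipoprotein receptor, fell (-0.63 ± 0.14). Macrophages are known to express Lrp1, Dab2, Lipa and Lamp2, and the summed myeloid markers rose beside them, as given above. Of those 14 markers 9 rose and Cd14 fell (-1.05 ± 0.40). The macrophage markers Adgre1 and Marco averaged only 0.847 and 0.669 CPM in del and were not tested. The part of myeloid cells in these rises was not tested.

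Of 14 genes around LXR only 6 had enough reads to be tested, and 4 rose, 1 fell and 1 did not pass. Ncoa1, a nuclear receptor coactivator (2.06 ± 0.18), Ncor1, a corepressor (1.89 ± 0.29), and Abca7, a lipid transporter (1.20 ± 0.20), rose, and Lpcat3 fell. The call of Abca7 was lost at 0.48 once length and GC were accounted for. The 8 untested genes included Nr1h3, which encodes LXR alpha, Rxra, its partner, and the oxysterol enzyme genes Ch25h and Cyp7b1, the last of which had no read in any library, like Ch25h. For comparison, 32.6% of all genes tested fell and 32.5% rose.

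**Figure D4:**
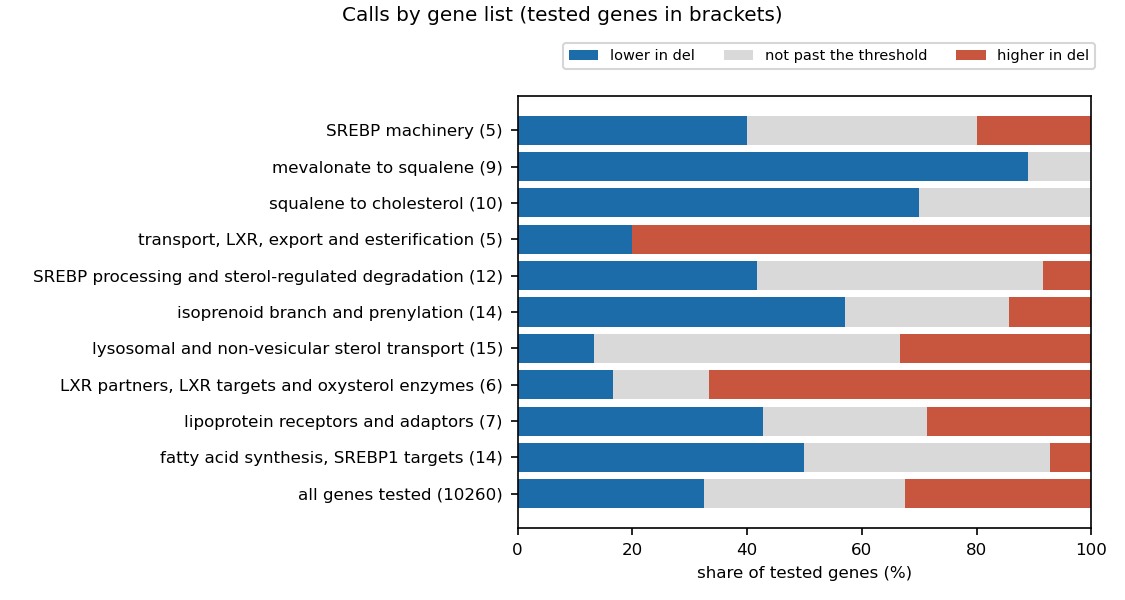
Share of tested genes in each list that were lower (blue), higher (red) or not past the threshold (grey) in del, with the number tested in brackets. The mevalonate block shows 88.9% lower and none higher, against 32.6% lower and 32.5% higher over all 10260 genes.

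Overlap with neighbouring genes limits some members, because reads come from transcript 3' ends. The libraries are strand-specific per the labels, but the sources do not say whether counting used the strand. In the GENCODE annotation the 3' end of Fdft1 lies inside Ctsb, that of Cyp51 inside Akap9 and that of Srebf1 inside Rai1, each on the opposite strand. These neighbours rose (Ctsb 1.97 ± 0.17, Akap9 2.05 ± 0.25, Rai1 0.56 ± 0.17), unlike the members beside them. Mvd and Lss have Gm20388 and 4930483K19Rik over their 3' ends, on the opposite strand, and the latter had no read. Fdps overlaps Gm43738 on the same strand, and how reads there were assigned is unstated. Tm7sf2 overlaps Vps51 on the same strand, and Vps51 fell too (-0.79 ± 0.18), by less than Tm7sf2 in point estimate. Likewise unstated is how reads shared with pseudogene copies were handled.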

How the data were processed

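Poly(A)-primed, strand-specific 3' RNA-seq libraries were made from 3 fl and 3 del samples, per the labels' protocols. The deposited table holds raw read counts per gene. The authors made them with STAR and HTSeq on mm10, per the submitters' processing notes, with versions and options not given in the sources. Of 24052 gene numbers 23969 were matched to symbols through RefSeq's GRCm38.p6 table. Rows without a symbol held 0.207% to 1.04% of a library's counts.

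Genes were kept by filterByExpr, scaled with TMM and tested across all 10260 genes with edgeR 4.0.16 (robust quasi-likelihood F test, group only, R 4.3.3), with Benjamini-Hochberg adjustment and a threshold of 0.05. Standard errors were derived from the F statistic. The test was checked on simulated data in which only a small share of genes changed. That check does not cover scaling or error control at the share of genes called here. Ratios of CPM used a prior of 0.5 and exact permutation over libraries. Alternatives covered scaling, filters, thinning to the smallest library, DESeq2 1.42.0, a replicate block, single libraries left out, and offsets from a loess fit on the length and GC content of the longest GENCODE M21 transcript. UTRs of at least 50 bases were used, 1 per gene (the longest).

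Members, roles and lists were chosen with earlier results of these data known. All 30 members and up to 3 genes of each other list, by smallest adjusted p, are named, and Faf2, Pggt1b, Lpcat3 and Fasn were added after their values were seen. Floors cover counting error only, and PCR reads are not independent molecules. Standard errors also include the spread among libraries. Depth was 2.65 times as great in fl on average, and the median coefficient of variation of a member was 10.7% in fl and 13.8% in del. Coordinates are those of GRCm38. Some genes of the pathway were not analysed or are not reported here.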

Additional observations from a re-analysis of the deposited data

How the results depend on the processing

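Of 23 called members, 17 kept their call and direction in every alternative that gave a value (Tm7sf2 gave none under the filter at 10 CPM, nor did Abcg1). They are 15 that fell and Scap and Mylip, which rose. Over all genes the alternatives called 5488 to 7286, against 6676, and upper-quartile factors moved the median log2 fold change to -0.13.

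Values that changed side or direction are grouped by setting, and the cause was not tested. With total counts alone Dhcr7 stood at -0.46, and with the DESeq2 test Dhcr7 stood at -0.50 and Nr1h2 at 0.43. With upper-quartile factors Nr1h2 was 0.30, Srebf2 -0.02 and Ebp -0.08. With no count filter Nr1h2 was 0.38 and Ebp -0.00. In thinned libraries, which hold fewer reads, Srebf2 was -0.12, Insig2 -0.54, Ggps1 0.44, Dhcr7 -0.40 and Nr1h2 0.40, leaving 1 SREBP gene lower and 1 mevalonate enzyme higher. With the length and GC trend removed, Srebf2 was -0.32, Insig1 -0.23, Insig2 -0.50, Ggps1 -0.06, Hsd17b7 -0.61, Ebp 0.48, Sc5d -0.55, Dhcr7 -0.35, Abcg1 0.43 and Soat1 0.02. That left 0 SREBP genes lower, 1 late enzyme higher, 2 transport genes higher, 0 SREBP processing genes higher, 1 isoprenoid gene higher, 2 LXR genes higher and 0 fatty acid genes higher. Total counts alone gave 2 fatty acid genes higher, and DESeq2 and no count filter gave 2 LXR genes lower.

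With single libraries left out, the count of members called higher ranged from 3 to 5 and that of transport genes from 2 to 4. Estimates ranged from -0.26 to 0.04 for Srebf1, -0.08 to 0.39 for Srebf2, -0.02 to 0.08 for Ebp, -0.41 to -0.08 for Sc5d, -0.73 to -0.35 for Dhcr7, 0.32 to 0.54 for Nr1h2 and 0.65 to 1.15 for Soat1. The replicate block moved 6676 calls to 6510 and ended those of Dhcr7 (-0.50) and Nr1h2 (0.44). Deviations of same-numbered libraries correlated at -0.0386 to 0.0825, and those of differently numbered ones at -0.145 to 0.167. This gave no sign that the numbers pair the samples, but so few libraries cannot exclude it. The direction of each ratio of members held with a prior of 2 and with any library left out. Tm7sf2, with 2 to 8 reads in a del library, and Abca1, with 2 reads in all, are limited by their low counts.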
